A study of Coturnix japonica with 54 samples.

Results

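A set of 10 neuropeptide genes of energy balance was chosen by name: CARTPT, NMU, CCK, ADCYAP1, GAL, SST, PMCH, HCRT, CRH and NTS. Of these 10 genes, 9 were among the 19916 genes of the deposited CPM table (read counts scaled to the same total in every library) and 8 among the 16448 genes of a second, shallower table of estimated counts. SST was analysed only in the count table, and ADCYAP1 and CRH only in the CPM table. The birds were 54 male Japanese quail, 6 in each of 9 photoperiod groups, and every sample was labelled as mediobasal hypothalamus; the labels state neither strain nor age. Day length fell from 16 h of light (16La) through 14 h (14La), 12 h (12La) and 10 h (10La) to 8 h (8L). It then rose through 10 h (10Lv), 12 h (12Lv) and 14 h (14Lv) to 16 h (16Lv), with 2 weeks at each step. The letters a and v were read as the declining, autumn-like arm and the rising, spring-like arm. Birds were picked at each step pseudo-randomly by body mass. The rising arm was sampled later than the declining arm, so direction of change and time in the study cannot be told apart.

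Feeding and energy use are set in the hypothalamus by peptides that arcuate, paraventricular and lateral hypothalamic neurons release. Peptides from CARTPT, NMU, CCK, ADCYAP1, NTS and CRH lower food intake when given into the brain of mammals, and those from GAL, PMCH and HCRT raise it. Quail breed in long days and regress their gonads in short days, and birds that follow such a cycle often change food intake and body mass with it.

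Brain and pituitary stalk had been collected together, and RNA was then taken from the mediobasal hypothalamus, per the series text. Depth in the CPM table ran from 251236 to 1894182 reads (median 938183), as recovered from its values, and the second table held totals of 4834 to 156500 (median 39688). In 16Lv the CPM columns of replicates 3 and 6 differed by no more than sampling noise and entered as 1 averaged sample, which left 53 libraries. All 16 hypothalamic region markers were listed in the CPM table, with NKX2-1, a transcription factor of the ventral hypothalamus, at a mean of 74.6 CPM and RAX, a tanycyte factor, at 0.109 CPM. Pituitary hormone transcripts differed between the tables in the other direction. PRL (prolactin) averaged 0.831 CPM in the CPM table and had 36000 counts in the count table, and FSHB, which encodes the subunit specific to follicle-stimulating hormone, averaged 0.0186 CPM and had 632 counts. Each result is therefore given per table. Limma called no tested gene of the 9 cell type marker lists in any contrast of the CPM table. POMC was on the lists of both pituitary markers and other hypothalamic peptides, and averaged 28.7 CPM in the CPM table. On the reads recovered from that table POMC was called for its slope on hours of light by limma-voom, edgeR and DESeq2 (adjusted p = 0.0435, 0.0151 and 9.19e-05). DESeq2 also called POMC among the 9 groups. With no filter on low values limma called TSHB, another pituitary marker, for 16Lv minus 14Lv.

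Depth in the CPM table followed the order of the bird numbers in the sample titles. Taken in that order within each group, the third library was the shallowest in 8 of 9 groups, and in 16La it was the second. With the places of 16La shifted by 1, the 9 libraries of that place held 251236 to 379018 reads. No source used here says what the order stands for. In limma with group and place in 1 model, 268 of all 8268 genes were called among the places (304, or 3.68%, with the shift), and none of the 8 peptide genes tested was. Their lowest adjusted p was 0.208, for HCRT, and 0.0913, for CCK, with the shift. CCK averaged 217 ± 79.02 CPM in the fourth libraries (SD, n = 9) and 285 to 341 CPM in the other places. The models of the photoperiod groups below leave the place out, and fits with it are given where they change a call.

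Of the 9 genes in the CPM data, 8 passed the filter on low values (at least 10 CPM in at least 6 libraries), and CRH did not. A gene counted as called when limma gave it a p below 0.05 after Benjamini-Hochberg adjustment over all genes tested. None of the 8 was called in any of 19 contrasts, which makes 152 tests, and none was called with the place of the library in the model. Limma called between 0 and 3 of all 8268 genes per contrast, the highest number being 0.0363% of genes for the difference among the 9 groups. Another 0.0242% were called for 16Lv minus 16La and as many for the slope on step number. The lowest adjusted p of any of the 8 genes was 0.385, for the slope of NMU on hours of light. At an unadjusted p under 0.05 stood 24 of the 152 tests (15.79%), against 4.578% over all genes and contrasts. The contrasts share libraries, the 8 genes were correlated in part between birds, and the genes were chosen with earlier results of these data known. These 24 are therefore not independent, and their share cannot be read as an excess. They included no test at 10 h (4.89% of all genes), of 16Lv minus 16La (6.01%), of 14La minus 16La (3.5%) or of 10La minus 12La (4.51%). In the limma F test among groups, the unadjusted values were 0.0088 for NMU, 0.0097 for CCK, 0.016 for GAL and 0.034 for ADCYAP1, where 3.8% of all genes were under 0.05. Each of these 4 genes had an adjusted p of 0.998 in limma.

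**Figure D1:**
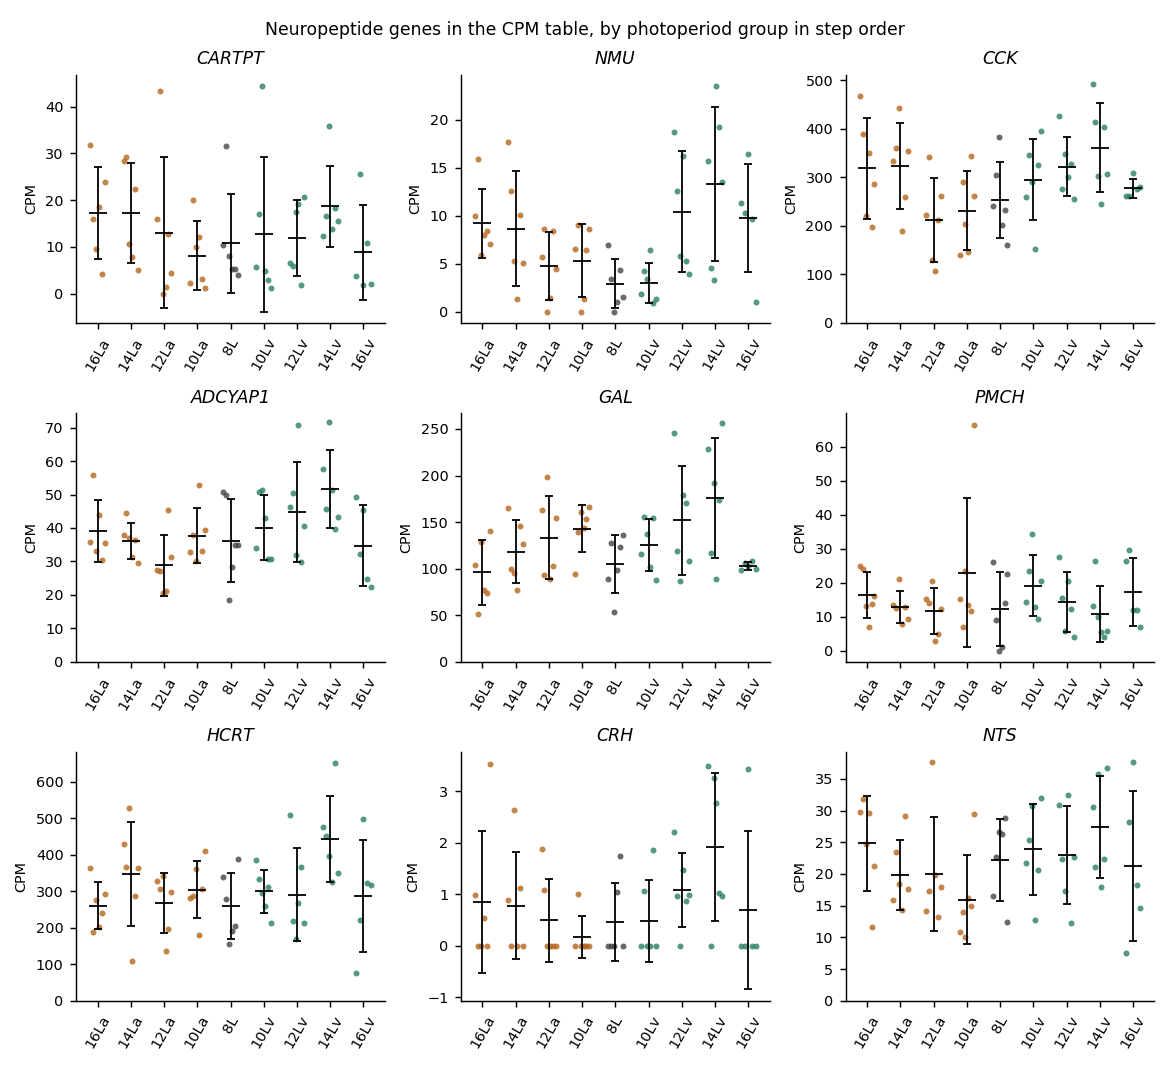
CPM of the 9 genes in the CPM table, by photoperiod group in step order on the x axis. Points are libraries (brown for the declining arm, grey for 8L, green for the rising arm), and bars are the mean ± SD with n = 6 per group and n = 5 for 16Lv. The highest group mean was that of 14Lv for every gene shown but PMCH, whose highest was 10La, and the libraries of neighbouring groups overlap for each gene. The share of all genes highest in 14Lv is not given here, and the genes were correlated in part, so this is a description only.

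The same day length on the rising and declining arms was compared at 10, 12 and 14 h. Over these 3 day lengths together, 7 of the 8 genes were higher on the rising arm by fitted value, with a median log2 difference of 0.38 against -0.01 over all genes tested. None was called in limma, which called 0.0121% of all genes. The 3 genes at an unadjusted p under 0.05, where 4.84% of all genes lay, were ADCYAP1, CCK and NTS. ADCYAP1 was higher by 0.40 (SE 0.13, limma adjusted p = 0.806). CCK was higher by 0.41 (SE 0.14, limma adjusted p = 0.806). NTS was higher by 0.41 (SE 0.17, limma adjusted p = 0.945). The remaining fitted differences ran from -0.05 for PMCH to 0.44 for NMU. Those of PMCH and CARTPT were smaller than their errors (0.33 and 0.42), and their signs turned under some of the alternative settings.

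Marker lists of other cell types had their own values in the same comparison. Oligodendrocyte markers were lower on the rising arm in 7 of 8 tested genes, with a median of -0.25, and 4 of them had an unadjusted p under 0.05. Hypothalamic region markers had a median of 0.24 over 7 tested genes, and neuron markers 0.03 over 11. POMC, also listed among other hypothalamic peptides, had 0.28. With CGA it made up the 2 tested pituitary markers, whose median was 0.55. The part of these marker lists in the differences of the peptide genes was not tested. In whole-tissue RNA, fewer cells of a type and less RNA per cell cannot be told apart.

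**Figure D2:**
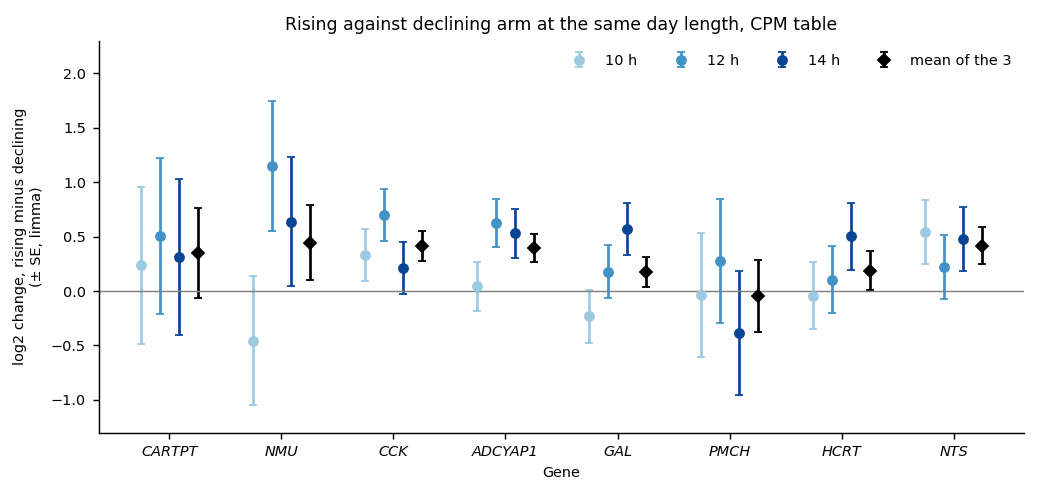
Log2 difference between the rising and the declining arm (y axis, ± SE from limma) for the 8 genes tested in the CPM table (x axis), at 10 h, 12 h and 14 h of light and as the mean of these 3. All 8 values at 12 h lie above 0, with 1.15 for NMU as the largest, and none of the values was called.

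CARTPT encodes the precursor of CART peptides, which lower food intake. Its CPM in the 53 libraries ran from 0 to 44.4 with a median of 10.5, and it was listed at 0 in 1 library of 12La. The group means lay between 8.14 ± 7.31 in 10La and 18.7 ± 8.64 in 14Lv (SD, n = 6 each). The spread between birds was wide, with a median coefficient of variation of 89.9% within groups. In each of the groups 12La, 8L, 10Lv and 14Lv, 1 bird stood far above the other 5. In 10Lv and 14Lv that bird's library was the shallowest of its group, at 292269 and 307058 reads. The lowest unadjusted p of CARTPT in limma was 0.0594, for 16Lv minus 14Lv. In the count table CARTPT had 4 counts.

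NMU encodes neuromedin U, a peptide that lowers food intake in rodents and chicks. Its lowest group means were those of 8L and 10Lv, at 2.89 ± 2.56 and 3.02 ± 2.08 CPM (SD, n = 6 each). The lowest, median and highest CPM were 5.90, 8.17 and 15.9 in 16La, against 0, 2.47 and 6.98 in 8L. On the rising arm they were 0.935, 2.65 and 6.39 in 10Lv and 3.95, 9.20 and 18.7 in 12Lv. The 8L birds thus lay mostly below those of 16La, with some overlap, and the 12Lv birds reached well above those of 10Lv. Limma called NMU in no contrast.

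For 8L minus 16La the log2 difference of NMU was -1.62 (SE 0.59, limma adjusted p = 0.999), and the exact two-sided permutation test gave p = 0.00433, where 0.00216 is the smallest that 6 against 6 allows. That contrast had 4.23% of all genes at an unadjusted p under 0.05 in limma. For 12Lv minus 10Lv the difference was 1.52 (SE 0.59, limma adjusted p = 0.998, with 4.72% of all genes at an unadjusted p under 0.05). For 16Lv minus 8L it was 1.52 (SE 0.62, limma adjusted p = 0.882, against 5.41% of all genes at an unadjusted p under 0.05). The values were 9.65, 10.3, 11.3 and 16.5 CPM in 4 libraries of 16Lv and 0.973 in the other. Over all 9 groups NMU had a slope of 0.22 log2 units per hour of light (SE 0.05, unadjusted p = 0.000233, limma adjusted p = 0.385), when 5.18% of all genes were at an unadjusted p under 0.05. Of 54 exact permutation tests of the 9 genes in 6 pairs of groups of the CPM table, 4 had a p under 0.05, which are not adjusted for the number of tests: this one of NMU, 1 of CCK and 2 of ADCYAP1, given with those genes. With TMM-scaled CPM 5 did, the other being GAL in 14Lv against 14La (exact p = 0.039). The 390 reads of NMU in 53 libraries, a median of 6.39 CPM, limit its precision.

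CCK encodes cholecystokinin, a satiety signal of gut and brain. It was read in every library, with 14345 reads, from 106 to 492.9 CPM (median 287). The lowest, median and highest values were 189, 344 and 443 CPM in 14La and 106, 217 and 342 in 12La. On the rising arm at 12 h they were 257, 314 and 426. The 12La birds were the lowest group by mean (212 ± 86.5, SD, n = 6), and their range overlapped those of both other groups.

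For 12La minus 14La the log2 difference of CCK was -0.66 (SE 0.24, limma adjusted p = 0.999, with 3.52% of all genes at an unadjusted p under 0.05). At 12 h the rising arm exceeded the declining arm by 0.70 (SE 0.24, limma adjusted p = 0.928), with 5% of all genes at an unadjusted p under 0.05. An exact permutation test of that pair gave p = 0.0281 (means 322 and 212 CPM). At 10 h the means were 295 ± 83.7 CPM in 10Lv and 232 ± 82.1 in 10La, and at 14 h they were 361 ± 91.7 in 14Lv and 324 ± 88.05 in 14La (SD, n = 6 each).

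ADCYAP1 encodes PACAP, a peptide that acts through cyclic AMP and lowers food intake in rodents. It had 1910 reads and between 18.6 and 71.6 CPM in every library (median 36.4). At 12 h the lowest, median and highest values were 20.5, 27.2 and 45.4 in 12La and 29.7, 43.4 and 70.6 in 12Lv. At 14 h they were 29.4, 36.6 and 44.4 in 14La and 39.6, 48.5 and 71.6 in 14Lv. At both day lengths the rising group had the higher values and overlapped the declining group, at 14 h only in the birds between 39.6 and 44.4 CPM.

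The log2 difference of ADCYAP1 between the arms was 0.62 at 12 h (SE 0.22, limma adjusted p = 0.928) and 0.53 at 14 h (SE 0.22, limma adjusted p = 1.00), where 3.59% of all genes had an unadjusted p under 0.05. The exact permutation tests gave p = 0.0346 at 12 h and p = 0.00649 at 14 h. At 10 h the means were 40.1 ± 9.60 CPM in 10Lv and 37.7 ± 8.17 in 10La (SD, n = 6 each; exact p = 0.641). The arm difference was not shown to vary with day length, since no gene of the 8 had an unadjusted p under 0.05 in that test, where 4.1% of all genes did. From 14Lv to 16Lv ADCYAP1 went from 51.5 ± 11.7 to 34.7 ± 12.0 CPM (log2 difference -0.57, SE 0.23, limma adjusted p = 0.862, with 5.6% of all genes at an unadjusted p under 0.05).

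**Figure D3:**
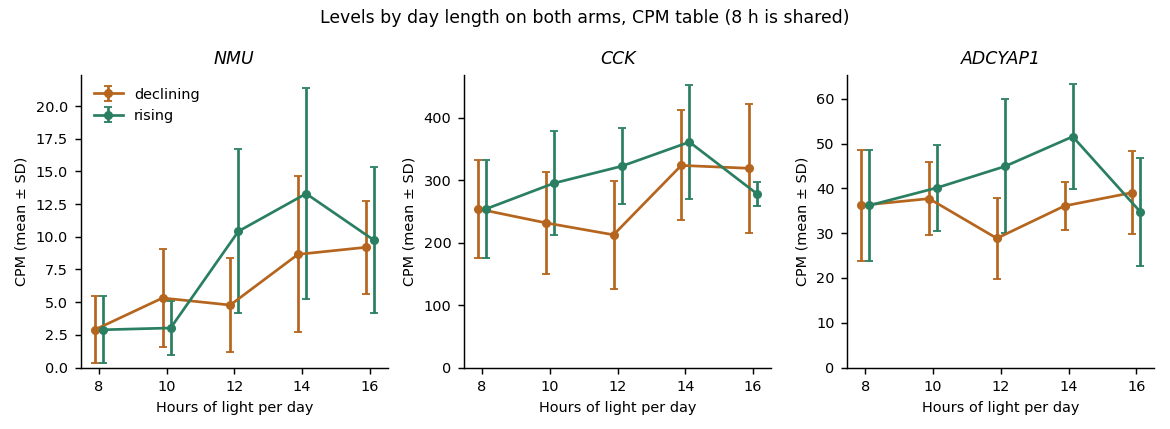
Mean CPM (± SD, n = 6 per group and n = 5 for 16Lv) of NMU, CCK and ADCYAP1 against hours of light per day on the declining arm (brown) and the rising arm (green). The 8 h group is drawn on both arms. NMU is lowest at 8 h (2.89 CPM), CCK and ADCYAP1 are lowest at 12 h on the declining arm (212 and 28.8 CPM), and all 3 are highest at 14 h on the rising arm.

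GAL encodes galanin, which raises food intake in mammals, and its reference gene overlaps LOC107314519, so reads of the pair could have been shared. It had 6339 reads, from 51.7 to 256 CPM per library. The lowest, median and highest values were 77.1, 113 and 165 in 14La and 88.6, 183 and 256 in 14Lv. The 5 libraries of 16Lv lay close together, at 98.3, 99.3, 102.9, 107 and 108 CPM. At 14 h the rising arm exceeded the declining arm by 0.57 (log2, SE 0.24, limma adjusted p = 1.00), and from 14Lv to 16Lv the log2 difference was -0.65 (SE 0.25, limma adjusted p = 0.862). The slope of GAL was 0.05 log2 units per step of the study (SE 0.02, limma adjusted p = 0.867, with 5.71% of all genes at an unadjusted p under 0.05).

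PMCH encodes the precursor of melanin-concentrating hormone, which raises food intake in rodents. Its reference gene overlaps PARPBP, and no source used here says whether the authors' counting used strand, so its values are uncertain. PMCH had 704 reads. The values in 10La were 6.99, 11.8, 13.6, 15.3, 23.5 and 66.4 CPM, and in 8L they were 0, 1.05, 9.04, 13.9, 22.6 and 26.2 CPM. The mean of 10La, 22.9 CPM, was raised by its highest bird, and the 2 groups overlapped. The log2 differences around the turning point were -1.25 for 8L minus 10La (SE 0.57) and 1.21 for 10Lv minus 8L (SE 0.57), with a limma adjusted p of 0.999 and 1.00 and with 4.23% and 3.97% of all genes at an unadjusted p under 0.05. Without 8L replicate 3, the library at 0 and the shallowest of its group (376256 reads), they were -0.66 and 0.62.

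HCRT encodes the orexins, made in the lateral hypothalamus, where they drive arousal and feeding. It had 15575 reads and a range of 75.6 to 652 CPM (median 305). The lowest, median and highest values were 168, 243 and 509 in 12Lv and 324, 424 and 652 in 14Lv, and the 5 libraries of 16Lv were at 75.6, 221, 317, 322 and 497 CPM. The group 14Lv stood highest by mean, at 442 ± 118 CPM (SD, n = 6), while its birds overlapped those of both neighbouring steps. The log2 difference was 0.70 for 14Lv minus 12Lv (SE 0.31, limma adjusted p = 0.999, 4.18% of all genes at an unadjusted p under 0.05) and -0.79 for 16Lv minus 14Lv (SE 0.32, limma adjusted p = 0.862). Without 16Lv replicate 1, the library at 75.6 CPM and the shallowest of its group (264273 reads), that second difference was -0.33.

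CRH encodes corticotropin-releasing hormone, the hypothalamic drive of the stress axis, which also lowers food intake. It had 42 reads in all and was above 0 in 24 of 53 libraries, with a highest value of 3.54 CPM. Libraries with a read numbered 5 of 6 in 12Lv and in 14Lv and 1 of 6 in 10La. At this depth no difference between groups was detectable: with no filter on low values the lowest adjusted p of CRH in limma was 0.858. SST encodes somatostatin, which holds back growth hormone release. In the count table it had 9 counts in 5 of 54 libraries, 6 of them in 12La. Only the fit with no filter on low counts tested it, and edgeR did not call it among the 9 groups there.

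NTS encodes neurotensin, which lowers food intake in mammals and which anterior pituitary cells of the rat also make. In the CPM table it had 1090 reads, every library lay between 7.56 and 37.7 CPM, and the group means ran from 16.0 ± 7.07 in 10La to 27.4 ± 8.01 in 14Lv (SD, n = 6 each). The lowest, median and highest values were 14.4, 18.1 and 29.1 CPM in 14La and 13.2, 17.6 and 37.7 in 12La. These 2 groups differed by less than their spread, with a log2 difference of -0.04 (SE 0.29, 95% interval from the limma fit -0.63 to 0.56). The difference among the 9 groups had an unadjusted p of 0.271 in limma.

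The count table gave NTS a different profile, with 287 counts in all. In 14La the 6 libraries held 4, 15, 17, 19, 20 and 80 counts of NTS, and in 16La they held 0, 4, 12, 13, 20 and 24. In 12La 5 libraries held 0 and 1 held 2, in 10La 5 held 0 and 1 held 1, and in 8L all 6 held 0. On the rising arm, 10Lv held 0, 0, 0, 1, 1 and 2, and 12Lv held 1, 1, 3, 4, 5 and 13. The last steps were mixed, with 0, 0, 1, 2, 4 and 5 counts in 14Lv and 0, 0, 0, 1, 5 and 7 in 16Lv.

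Divided by the libraries' summed counts, NTS stood at 167 CPM of the count table in 16La, 370 in 14La, 4.55 in 12La and 3.13 in 10La. In 8L it was 0 of 247637 counts, which allows up to 12.1 CPM at 3 counts over the group. The rising arm had 23.9 CPM in 10Lv, 118 in 12Lv, 51.5 in 14Lv and 80.2 in 16Lv. On the way down the step from 14 h to 12 h thus held the drop, and on the way up 12Lv was the first group with counts in every library (12Lv against 10Lv, exact two-sided permutation p = 0.00433; edgeR adjusted p = 0.519). NTS was 81.3-fold higher in 14La than in 12La (exact 95% interval 22.1 to 677, which covers counting error only). Without 14La replicate 5, which held 80 of the 155 counts, the ratio was 47.4 (12.7 to 398). In 16La it was at least 10.95-fold higher than in 8L by the exact 95% interval, and 13.8-fold higher with 8L set at the floor of 3 counts over the group. For 12Lv over 12La the ratio was 26.1 (6.55 to 226), and for 14La over 14Lv it was 7.17 (3.99 to 14.2), or 4.18 (2.26 to 8.45) without 14La replicate 5.

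The planned filter of the count table kept 826 genes and none of the 10, so NTS was tested with a filter chosen after its values were seen (genes with at least 50 counts in all, 4989 genes, NTS, GAL and PMCH among them). With edgeR's quasi-likelihood test NTS differed among the 9 groups (adjusted p = 8.73e-06, with 0.601% of genes called) and had rank 4 of 4989 genes by p. It fell from 14La to 12La (adjusted p = 0.00372, with 0.0601% of genes called) and was lower in 8L than in 16La (adjusted p = 0.0128, with 0.1% of genes called), where 1 library of 16La was also at 0. The slope on hours of light was 0.69 log2 units per hour (SE 0.11, edgeR adjusted p = 7.41e-05, with 0.261% of genes called). The fall from 14La to 12La was called with each library left out in turn. The lower level in 8L than in 16La was lost in edgeR without replicate 1, 2 or 3 of 8L, with an adjusted p of up to 0.0555. For 16Lv minus 8L, NTS was not called (edgeR adjusted p = 0.354, with 0.02% of genes called).

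The arms differed in opposite directions at 12 and 14 h. At 12 h every library of 12Lv was above every library of 12La, and at 14 h every library of 14Lv was below every library of 14La. An exact two-sided permutation test gave p = 0.00216 for each pair, the smallest that 6 against 6 allows; NTS was 1 of 3 genes (0.0601%) whose groups did not overlap in that direction at 12 h, and 1 of 5 genes (0.1%) at 14 h. Neither pair was called in edgeR (adjusted p = 0.33 at 12 h, with 0.0601% of genes called, and 0.376 at 14 h, with 0% called). The difference of the arm effect between 10, 12 and 14 h was called (edgeR adjusted p = 0.0219, with 0.0802% of genes called). That call was lost without 14La replicate 5 (adjusted p = 0.0919), 12La replicate 2 (0.0747), 12Lv replicate 4 (0.0891), or 14Lv replicate 1 (0.0588), 3 (0.0622) or 6 (0.0504), and without the 6 shallowest libraries (0.0582). It was also lost with the place in bird-number order in the edgeR model (adjusted p = 0.0559, or 0.0546 with 16La shifted by 1), while the calls of NTS among the groups, for 12La minus 14La, for 8L minus 16La and for the slope on hours of light held there.

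Pituitary hormone transcripts of the count table had their own profiles over the groups. FSHB averaged 202 and 420 CPM in 16La and 14La, 30.1 and 12.7 in 12La and 10La, and was at 0 throughout 8L. It averaged 114 in 10Lv, 896 in 12Lv, 148 in 14Lv and 293 in 16Lv. CGA encodes the alpha subunit common to the pituitary glycoprotein hormones. On the declining arm it averaged 6264 CPM in 16La, 7890 in 14La, 1033 in 12La and 1190 in 10La. In 8L the mean was 1405, and on the rising arm it was 3246 in 10Lv, 7957 in 12Lv, 6716 in 14Lv and 5224 in 16Lv. FSHB and CGA, like NTS, were thus lower by mean in 12La, 10La and 8L than in 16La and 14La. NTS, at 0, 0, 1, 2, 4 and 5 counts in 14Lv, averaged 40.5 CPM there, against 112 in 12Lv and 82.4 in 16Lv. The 16Lv libraries ran from 0 to 321 CPM, and by median NTS was higher in 14Lv (48.0) than in 16Lv (9.82). FSHB was lower in 14Lv than in 12Lv and 16Lv by mean and by median (158 against 768 and 323). The CGA mean of 14Lv lay between those of 12Lv and 16Lv. PRL averaged 17640 CPM in 16La, 22622 in 14La, 9840 in 12La, 4581 in 10La and 3179 in 8L. It then averaged 4124 in 10Lv, 11774 in 12Lv, 17531 in 14Lv and 11428 in 16Lv. The 7 pituitary markers of the count table summed to between 29053 and 60159 CPM in the libraries of 16La and 14La. In 12La, 10La and 8L the sum ran from 3707 to 62409 CPM. POMC, the melanocortin precursor, averaged 18448 CPM in 16La, 9770 in 14La, 15952 in 12La, 20878 in 10La and 22474 in 8L. Of the means from 16La to 8L, those of NTS, FSHB, CGA and PRL were thus highest in 14La, and that of POMC was lowest there. The neuron markers summed to at most 8027 CPM in any library of the count table, and to at least 22367 CPM in every library of the CPM table. The part of these transcripts in the NTS result was not tested.

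**Figure D4:**
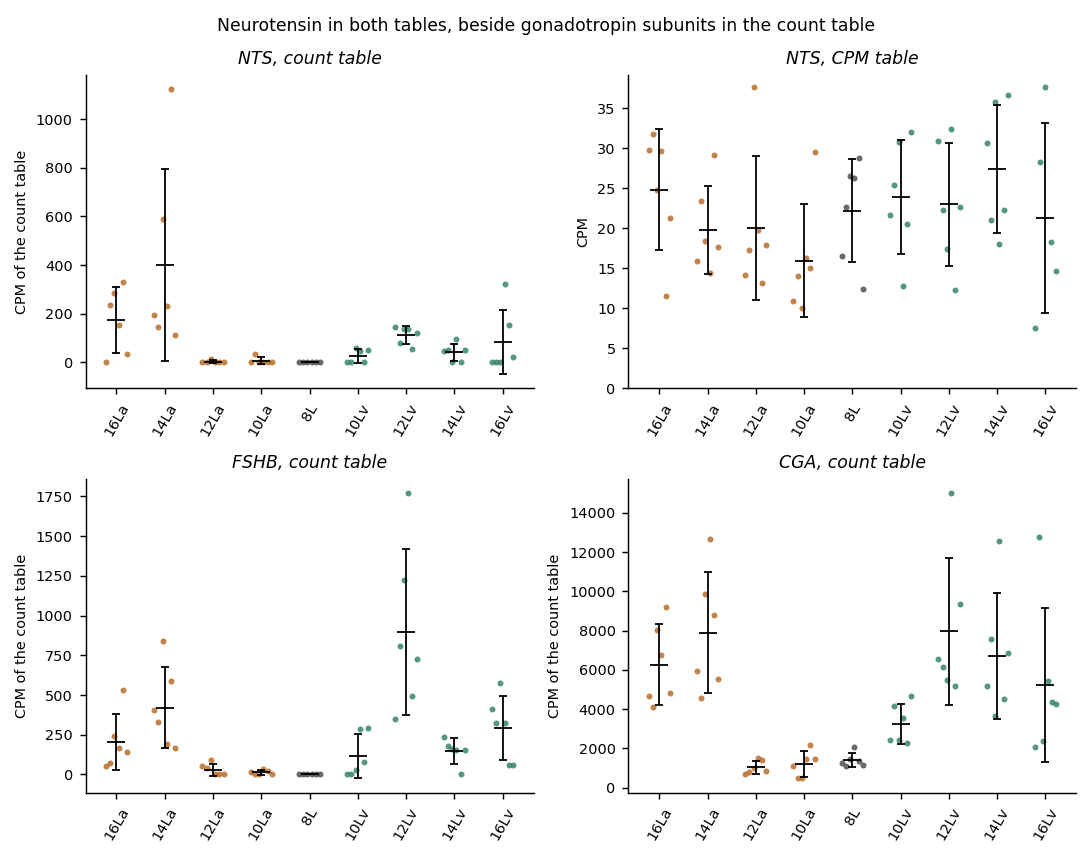
NTS in the count table (top left, CPM of the library's counts) and in the CPM table (top right), beside FSHB and CGA in the count table (bottom), by photoperiod group in step order. Points are libraries and bars are the mean ± SD (n = 6, and n = 5 for 16Lv in the CPM table). In the count table NTS is at or near 0 in 12La, 10La and 8L, while in the CPM table its group means stay between 16.0 and 27.4 CPM.

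The other genes had few counts there. GAL had 67 counts in 22 of 54 libraries and PMCH 53 counts in 30, and with the same filter edgeR called neither in any contrast (adjusted p for the difference among the 9 groups 0.554 for GAL and 1.00 for PMCH, and 0.408 as the lowest of GAL over its contrasts). NMU had 8 counts, CARTPT and CCK 4 each, and HCRT 1. The 1 count of HCRT in the count table stands beside 15575 reads in the CPM table.

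Receptors and binding proteins of these peptides were listed as 26 genes, 24 of them in the CPM table. The filter kept 5 of these, limma and the other tools called none in any contrast, and their median log2 difference between the arms was 0.11 against -0.01 over all genes, with 1 of the 5 at an unadjusted p under 0.05 where 4.84% of all genes were. ADCYAP1R1, the PACAP receptor, averaged 446 CPM and was higher on the rising arm by 0.37 (SE 0.15, limma adjusted p = 0.945). CRHBP, which binds CRH, averaged 25.3 CPM and had a difference of 0.33 (SE 0.19). CRHR2, a CRH receptor, averaged 13.7 CPM, and SSTR2, a somatostatin receptor, 11.5 CPM, with differences of 0.05 (SE 0.32) and -0.68 (SE 0.38). The receptors of neuromedin U, galanin, cholecystokinin, melanin-concentrating hormone and neurotensin that were listed each averaged under 0.5 CPM, apart from SORT1, a sorting receptor that binds neurotensin, at 3.52 CPM.

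Of 27 other hypothalamic peptide genes, 22 were in the CPM table and 18 passed the filter, and limma called none in any contrast. Their median log2 difference between the arms was 0.01, with 10 genes above and 8 below 0 and 3 of the 18 at an unadjusted p under 0.05 (4.84% of all genes). On the recovered reads, limma-voom gave 2 calls over all contrasts (PDYN and POMC), edgeR 1 (POMC) and DESeq2 5 (2 of POMC and 1 each of AGRP, AVP and PDYN). Over all genes and contrasts these tools called 0.00573%, 0.00828% and 0.0262% of tests. The 4 genes named here for their mean CPM, which is not corrected for length, were AVP, the vasotocin precursor in birds, with -0.73 (SE 0.57), NPY, which raises feeding, with -0.42 (SE 0.13, limma adjusted p = 0.787), PDYN, an opioid precursor, with 0.43 (SE 0.18), and TAC1, the substance P precursor, with 0.32 (SE 0.14). AGRP and POMC, named after their values were seen, had the lowest adjusted p of the list: slopes of 0.32 (SE 0.07) and -0.16 (SE 0.03) log2 units per hour of light, each with a limma adjusted p of 0.168.

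Between birds of the same group the 8 genes varied together in part. Of 28 pairs, 23 had a positive Pearson correlation of the deviations from group means (53 libraries), with a median r of 0.148, and 4 pairs had an adjusted p under 0.05 in permutation tests of 100000 resamples. NMU and ADCYAP1 had an r of 0.51 and a Spearman rho of 0.52 (permutation, adjusted p = 0.0056 and 0.0028), and r was 0.455 without the 2 libraries farthest from the median. CARTPT and ADCYAP1 had an r of 0.44 (rho 0.435, permutation, adjusted p = 0.0084 and 0.0169, r = 0.429 without 2 libraries). GAL and HCRT had the same r of 0.44 (rho 0.413, permutation, adjusted p = 0.0084 and 0.0232, r = 0.387 without 2 libraries). ADCYAP1 and PMCH had an r of 0.38 (rho 0.343, permutation, adjusted p = 0.039 and 0.0649, r = 0.348 without 2 libraries). All pairs share each library's depth and tissue content. Of 56 relations of the 8 genes with recovered reads or the summed level of a marker list, 1 had an adjusted p under 0.05: HCRT against the neuron markers, most of whose sum is MAP2, with an r of -0.468 and a rho of -0.481 (permutation, adjusted p = 0.019, r = -0.484 without 2 libraries). That relation did not hold within the places of the bird-number order without the shift of 16La. With group and place means removed its r was -0.296 (52 libraries, rho -0.259, permutation, adjusted p = 0.236 and 0.396). MAP2 was itself called among those places (limma adjusted p = 1.45e-05). In the same order the 4 pairs of peptide genes kept an adjusted p of r under 0.05, with r from 0.388 to 0.517, though the adjusted p of rho for CARTPT and ADCYAP1 was 0.103. With 16La shifted by 1, 3 of the 56 relations had an adjusted p under 0.05.

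**Figure D5:**
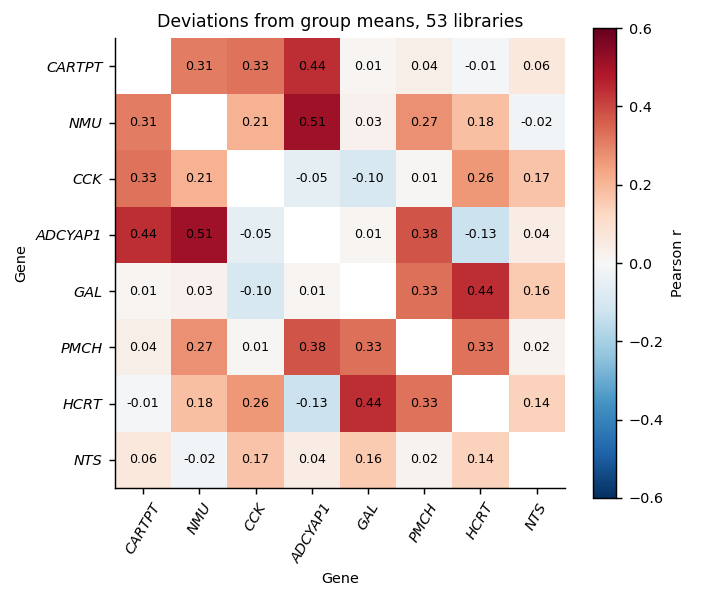
Pearson r between the 8 genes over 53 libraries of the CPM table, from log2 values with each group's mean removed (genes on both axes, r by colour and as printed). The highest value is 0.51 for NMU and ADCYAP1 and the lowest is -0.13 for ADCYAP1 and HCRT.

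Genes with the most similar log2 values over the 53 libraries, group means kept, were listed for each of the 8 as a description. CARTPT was most like ATP1B1 (r = 0.742), TAC3 (0.737) and PRDX3 (0.725). NMU was most like LRRC75B (0.623), ADCYAP1 (0.550) and TOMM6 (0.528). CCK was most like LAMTOR3 (0.638), TUBA1A (0.595) and ATP5O (0.554). ADCYAP1 was most like GDA (0.564), LHFPL4 (0.558) and NMU (0.550). NMU and ADCYAP1 thus named each other. GAL was most like BCAP29 (0.591), AKAP17A (0.562) and GOLGA7 (0.550). PMCH was most like PARPBP (0.699), the gene that overlaps it, then CIR1 (0.556) and NKX2-1 (0.537). HCRT was most like SYTL5 (0.6251), PRDX4 (0.618) and CAMK4L (0.614). The genes nearest to NTS were GOLPH3 (0.532), MON2 (0.531) and DGKI (0.527). All values share the libraries' depth.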

How the data were processed

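RNA from the labelled mediobasal hypothalamus was read as direct cDNA on Oxford Nanopore flow cells, 1 library per bird. Tools named by the submitters' processing notes are minimap2 2.17 as well as Salmon 0.14.2 and edgeR 3.24.3. Which tool did which step is not given in the sources used here, and the same holds for the build. The authors deposited 1 table of CPM per gene and 1 table of estimated counts (unscaled expected counts) of 40282 transcripts, with 99.72% of its values whole. How the tables relate is not stated in the sources used here, so levels of both are set side by side only to describe the tables, and no test crosses them. Neither is corrected for length, so levels are not compared between genes. Of the CPM rows, 14 with date-like names were left out. Reads were recovered from its lowest steps (99.73% to 100% of values per library whole within 0.1 read).

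The CPM table was fitted with limma 3.58.1 (R 4.3.3) on log2(TMM-scaled CPM + 1) in 1 model of 9 group means. Calls used Benjamini-Hochberg adjustment over the genes with at least 10 CPM in at least 6 libraries. Counts of the count table were summed per gene and rounded, and tested with edgeR 4.0.16 (quasi-likelihood, TMM, filterByExpr minimum count of 10). That filter kept none of the 10 genes, so a filter of 50 counts in all was added after seeing the data. Gene names were matched to the annotation of assembly Coturnix japonica 2.1; 58.3% of the names in the CPM table and all transcripts of the count table matched. Alternatives were another pseudocount (0.25), other filters, no TMM, limma-voom, edgeR and DESeq2 1.42.0 on recovered reads, leaving out libraries and, added after seeing the data, the place of a library in the order of the bird numbers in the titles as a block (52 libraries of the CPM table, since the averaged sample spans 2 places). Tests of the fits were checked on simulated data. All 10 genes are named; from other lists, called genes or else up to 4 by mean CPM; and the 3 most similar genes. The genes, lists and tests were chosen with earlier results of these data known. The labels name separate birds as replicates. Intervals and floors cover counting error only.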

Additional observations from a re-analysis of the deposited data

Results flagged for a closer look

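Within groups of 5 or 6 libraries, a library was picked out when its gap to the nearest other exceeded Dixon's limit. This happened in 13 of 90 sets of values. A set with reads in only 1 library is always flagged, as for CRH in 10La and 16Lv and for NTS of the count table in 12La and 10La. The rate of about 1 in 20 expected of this limit is for normal values, so 13 of 90 cannot be read as an excess. CARTPT had 4 such libraries: 12La replicate 2 at 43.3 CPM (mean of the others 6.92), 8L replicate 2 at 31.7 (6.56), 10Lv replicate 3 at 44.4 (6.30) and 14Lv replicate 3 at 35.8 (15.3). Those of 10Lv and 14Lv were the shallowest of their groups. GAL had a low bird, 10La replicate 1 at 94.8 CPM (mean of the others 153). PMCH had 10La replicate 6 at 66.4 CPM (14.2). NTS had 12La replicate 3 at 37.7 CPM (16.5) and 10La replicate 6 at 29.5 (13.2). CRH, with 1 to a few reads per library, had 16La replicate 6 at 3.54 CPM, 10La replicate 2 at 0.998 and 16Lv replicate 3 at 3.44. That last value belongs to the averaged sample of 16Lv replicates 3 and 6. In the count table the only libraries of 12La and 10La with any NTS count stood apart, 12La replicate 3 at 12.8 CPM and 10La replicate 2 at 36.0 CPM. The same bird, 12La replicate 3, was thus the highest of its group for NTS in both tables. Its CPM library was the shallowest of the group, at 291795 reads. In the count table its value was 2 counts in the library with the highest total, 156500, so few reads carry this match.

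The difference between the rising and declining arms for NTS in the count table was not the same at 10, 12 and 14 h (edgeR adjusted p = 0.0219). By CPM of the count table, the rising arm at 12 h was higher in 6 of 6 libraries than every library of 12La. At 14 h it was lower in 6 of 6 than every library of 14La. By raw counts both pairs of groups overlapped. The call was lost without single libraries and with the place in bird-number order in the model (adjusted p = 0.0559), as given with the result.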

How the results depend on the processing

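In the CPM table none of the members was called in 10038 tests over the main fit, 12 other settings and 53 in which 1 library was left out, and the lowest adjusted p was 0.0506, for the slope of NMU on hours of light in DESeq2 (0.0506 to 0.785 over its settings). DESeq2 gave no test of the arm effect between day lengths, and fits of only the groups compared gave no slopes and no test among all groups. The arm difference of CARTPT turned to -0.0552 with limma-voom and -0.0164 without the 6 shallowest libraries. That of PMCH turned to 0.0263 with limma-voom, 0.0040 with edgeR and 0.0088 with DESeq2, and ran from -0.155 to 0.072 with 1 library left out; the cause was not tested. Other hypothalamic peptides gave 2 calls over all contrasts with limma-voom, 1 with edgeR and 5 with DESeq2, against 0 in limma. With 1 library left out they gave 0 to 4 calls, of POMC and PDYN only. AGRP and AVP were called by DESeq2 alone. These genes were named after their values were seen. Correlated pairs numbered 9 with group means kept, against 4, and 5 or 6 with a block removed; relations to depth or marker sums numbered 1, against 0 or 3 with a block removed. In the count table the members called among the 9 groups numbered 0 under the planned filter, where none was tested, and 1 (NTS) with no filter, with the 50-count filter in edgeR, limma-voom or DESeq2, without the 6 shallowest libraries, with either block, and with each library left out (1 to 1). For NTS, with 1 library left out, the adjusted p among groups ran from 2.3e-06 to 0.000245, that of the arm effect between day lengths from 0.0156 to 0.0919 (0.0582 without the 6 shallowest libraries, 0.0559 and 0.0546 with a replicate block), and the log2 difference of 8L minus 16La from -6.42 to -5.92. With 8L at 0 in all libraries, that fitted value is no bound. Without a filter 1449 of 16442 genes were called among groups, against 4 of 826 with the planned filter. Count totals of 4834 to 156500 limit every low count. The labels give no shared replicate numbers, so the block, chosen after seeing the data, was the place in bird-number order within a group. Same-place libraries of different groups had a median r of 0.0298 in their deviations from group means (over 0.1 in 2 of 200 pairs), and 32 of 52 libraries correlated best with one of their own place (42 with 16La shifted by 1). The block lost the call of the NTS arm effect between day lengths and changed no other call of the 10 genes.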
